A study of Mus musculus with 9 samples.

Results

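The genes described here code for the proteins of the cytosolic ribosome in mouse lymphoid-primed progenitors. Members were the genes whose symbol in the array's annotation starts with Rpl or Rps and a digit, together with Rpsa, Rplp0, Rplp1 and Rplp2. S6 kinases, pseudogene names and probe sets that name several genes were left out. The rule found 50 of the 18193 genes with a probe set of their own, 22 of the large subunit, 21 of the small subunit, 6 with the name of a paralog, and Rps19bp1. This last gene codes for a protein that binds Rps19 and is not a part of the ribosome; the symbol rule caught it. Each gene was read from its brightest probe set by the mean over all arrays, and the 47 genes brighter than the median of an array on 3 or more of them entered the tests. Rpl39l, Rpl3l and Rps16 were too dim for that.

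RNA came from bone marrow cells sorted as negative for lineage markers and positive for CD117, SCA-1 and CD135 (Flt3), and was hybridised to 9 Affymetrix arrays. There were 3 arrays of wild-type (WT) controls, 3 of E2A-/- mice and 3 of Lyl1-/- mice. The labels give neither age nor allele nor how many mice a sample holds. E2A, the product of Tcf3, is an E protein of the basic helix-loop-helix class that drives lymphoid gene expression, and Lyl1 is a helix-loop-helix partner of E proteins; the series title concerns Tal1, a relative of Lyl1.

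The cytosolic ribosome joins a small subunit, which reads the messenger RNA, to a large subunit, which forms the peptide bonds. Its protein genes are among the most strongly transcribed of dividing cells, and their messengers begin with a run of C and T, the terminal oligopyrimidine (TOP) tract, through which mTOR signalling sets how actively they are translated. In blood formation they are known for Diamond-Blackfan anaemia, in which loss of a single copy of a ribosomal protein gene impairs red cell production.

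WT 1 and WT 3 were nearly the same array. The robust spread of their log2 difference over the tested ribosomal protein genes was 0.0605, against 0.0824 to 0.320 in the other pairs of arrays, and 0 probe sets of the whole array differed by more than 2-fold. They were averaged and counted as 1 sample, which left 2 WT samples beside 3 of each knockout. WT 2 thus had as much weight in every difference from WT as WT 1 and WT 3 together. On WT 2 the summed intensity of 6 stromal and endothelial markers was 812, against 411.5 to 448.8 on the other arrays. Of these 6 markers, 2 lay above the array median on WT 2 and 0 or 1 on the others. Lyl1 read 1352 to 1443 on the WT arrays and 79.2 to 92.0 on the Lyl1-/- arrays. For Tcf3 the WT arrays read 164 to 205 and the E2A-/- arrays 121 to 193; no source used here says whether its probe set lies in the deleted part, so it checks nothing. Of the sort-gate genes, Kit and Flt3 lay above the array median on all 9 arrays, and Ly6a, for SCA-1, had no probe set of its own. Kit and Flt3 were lower than in WT, by log2 differences of -0.22 to -0.13 in E2A-/- and -0.49 to -0.40 in Lyl1-/-. Neither gene was called. E2A-/- 2 stood apart, as is given below with its values.

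Members of this family differ in the letters at their transcription start. The windows below run from 40 bases before to 15 bases after a start annotated by RefSeq in GRCm38.p6, so they hold the end of the promoter and the first bases of exon 1, which are 5′ untranslated sequence or close to it. They belong to the genes to which the comparisons below return, and the capitals mark the longest run of at least 5 C or T that touches the 10 bases before or 15 bases after the start.
Rps6 (chr4:86857353-86857407, minus strand): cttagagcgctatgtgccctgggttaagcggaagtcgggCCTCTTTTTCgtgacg
Rps26 (chr10:128626492-128626546, minus strand): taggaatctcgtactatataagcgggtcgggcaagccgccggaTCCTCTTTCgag
Rps10 (chr17:27635230-27635284, minus strand): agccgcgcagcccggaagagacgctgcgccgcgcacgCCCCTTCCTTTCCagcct
Rps18 (chr17:33955651-33955705, minus strand): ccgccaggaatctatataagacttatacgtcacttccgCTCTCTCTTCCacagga
Rps24 (chr14:24490638-24490692, plus strand): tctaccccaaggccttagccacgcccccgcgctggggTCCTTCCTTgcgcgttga
Rpl12 (chr2:32961672-32961726, plus strand): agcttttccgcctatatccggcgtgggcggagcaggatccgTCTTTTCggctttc
Rpl35 (chr2:39005117-39005171, minus strand): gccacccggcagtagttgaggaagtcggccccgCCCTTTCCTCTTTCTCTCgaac
Rps15 (chr10:80292391-80292445, plus strand): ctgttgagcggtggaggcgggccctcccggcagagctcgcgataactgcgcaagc
Rpl37a (chr1:72711220-72711274, plus strand): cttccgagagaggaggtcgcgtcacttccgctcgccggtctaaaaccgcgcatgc
Rpl41 (chr10:128549154-128549208, minus strand): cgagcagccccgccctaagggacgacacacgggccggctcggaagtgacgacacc
The first 7 of these windows carry a run of 7 to 18 letters at the start, and those of Rps15, Rpl37a and Rpl41 carry none at the start that RefSeq lists.

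RefSeq promoters, 250 bases before to 50 after a start, were matched by symbol for 44 of the 50 members, which gave 52 promoters out of 32851 in all. A run of at least 8 C or T at the start was present in 21 of the 52, or 40.4%, against 15.4% of all promoters. The letters CCGGAAG, the core that ETS factors bind, stood on either strand in 40.4% of member promoters and in 8.86% of all. CCATNTT, a core of the factor YY1, stood in 30.8% and 16.1%, and the TATA box letters TATAAA stood in 11.5% and 13.6%. The E-box CANNTG, to which E proteins and their partners bind, stood in 51.9% of member promoters and in 72.3% of all. Of its forms, CAGCTG stood in 5.77% against 16.3%, CAGGTG in 15.4% against 20.2%, and the Myc-type CACGTG in 9.62% against 7.15%. Member promoters held 58.0% G and C against 53.8% in all, and the shares were not matched for this. A match of letters is a description of the window and not a bound site.

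The brightest probe sets of most of these genes lay at the top of the arrays. Of the 50 members, 34 lay in the brightest 1% of the array's probe sets and 40 in the brightest 5%. Each member was ranked by its brightest probe set among all probe sets of the array, a choice that raises its rank. Of the members' 106 probe sets, 95 were bright enough for the tests. The brightest were those of Rpsa, which also serves as a laminin receptor, Rps29, Rps20, Rps28 and Rplp2, an acidic protein of the stalk that calls in elongation factors. Their intensities ran from 9412 for Rplp2 on E2A-/- 3 to 15388 for Rps20 on the same array. The dimmest were Rps16 (56.0 to 67.6), Rpl3l (60.5 to 75.4), Rpl39l (58.9 to 92.0), Rps27 (76.4 to 104) and Rpl39 (135 to 158), against array medians of 77.9 to 79.3. Intensities of different probe sets depend on their probes, so these values do not order the genes by messenger level. The brightest probe set had a name ending in _x_at for 16 members and in _s_at for 1, that of Rpl22. Such probe sets may also detect other transcripts. Rps16, Rps27 and Rpl39 code for core ribosomal proteins, whereas Rpl3l and Rpl39l are paralogs best known from muscle and testis. A further 110 probe sets name several genes with at least 1 ribosomal protein gene among them; they name 46 such genes, 31 of which, such as Rpl5 and Rpl3, have no member here.

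**Figure D1:**
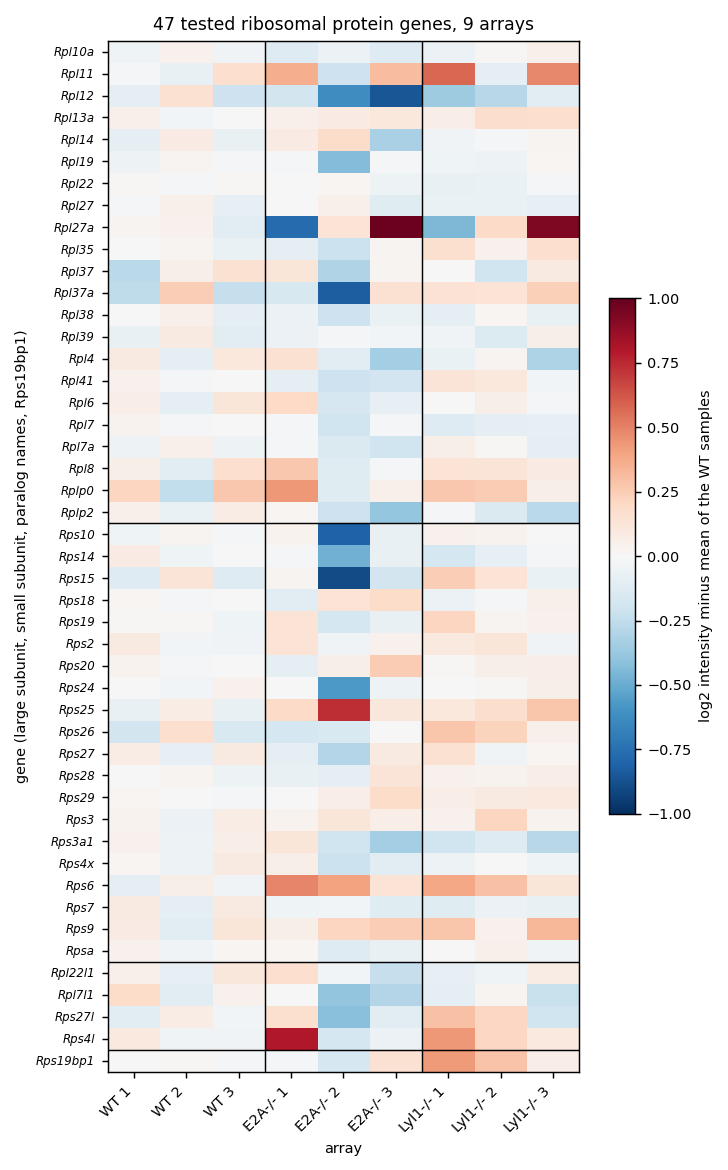
Each row is 1 of the 47 tested genes and each column 1 of the 9 arrays; the colour is the log2 intensity minus the mean of the WT samples, from -1 (blue) to 1 (red). Most cells are pale, the column of E2A-/- 2 holds the deep blue cells of Rps10, Rps15 and Rpl37a, and the row of Rpl27a runs from blue to red within both knockouts.

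No ribosomal protein gene passed the adjusted threshold of 0.05 between E2A-/- and WT. The 47 tested genes had 0 calls in limma's moderated test, where 0.226% of the 11952 genes tested were called, and the smallest adjusted p among them was 0.468. At an unadjusted p under 0.05 there was 1 member with a higher value in E2A-/-, Rps6, and 1 with a lower value, Rpl12, against 8.59% of all genes tested. The groups did not overlap for 9 members (19.1%), 4 higher and 5 lower in E2A-/-, against 22.5% of all genes. The median log2 difference of the members was -0.05, with 14 above 0 and 33 below, beside -0.01 over all genes tested. Of all 11952 genes tested, 6412 lay below 0. The arrays had been brought to nearly the same distribution, so a difference is relative to the rest of the array, and in sorted populations fewer cells of a type and less RNA per cell cannot be told apart.

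Rps6 is the small subunit protein that S6 kinases phosphorylate below mTOR. Its intensity was 730, 810 and 757 in WT 1 to 3, 1090, 1026 and 852 in E2A-/- 1 to 3, and 1017, 949 and 845 in Lyl1-/- 1 to 3. Every knockout array was above every WT array, and the lowest of each knockout came close to the highest WT array. The log2 difference from WT was 0.34 (SE 0.134, adjusted p 0.538) in E2A-/- and 0.27 (SE 0.134, adjusted p 0.640) in Lyl1-/-, and both comparisons use the same WT samples. A further probe set of Rps6 was too dim for the tests, at 63.8 to 85.3 and above the array median on 2 arrays. With the mean of both probe sets the difference between E2A-/- and WT was 0.19 (adjusted p 0.790).

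Rpl12, a protein at the base of the ribosomal stalk, read 259, 306 and 239 in WT, 243, 179 and 153 in E2A-/-, and 216, 227 and 255 in Lyl1-/-. Its E2A-/- arrays lay lowest in 2 of 3 cases, and E2A-/- 1 lay within the WT range of separate arrays. The log2 difference was -0.55 (SE 0.193, adjusted p 0.468) between E2A-/- and WT, the only member beyond 0.5 in any comparison. It was -0.25 (SE 0.193, adjusted p 0.817) between Lyl1-/- and WT. Rps25, a small subunit protein used in translation from internal entry sites, had a difference of 0.35 (SE 0.179, adjusted p 0.679) in E2A-/-. Its value of 675 on E2A-/- 2 stood above 384 to 491 on the 8 other arrays.

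No ribosomal protein gene passed the threshold between Lyl1-/- and WT either. There were 0 calls among the 47, against 0.192% of all genes tested, and the smallest adjusted p was 0.640, for Rps6. At an unadjusted p under 0.05 there were 0 members, against 8.79% of all genes. The groups did not overlap for 13 members (27.7%), 9 higher and 4 lower in Lyl1-/-, close to the 26.7% of all genes. The median log2 difference was 0.03, with 28 above 0 and 19 below, beside a median of -0.005 over all genes tested. Of all 11952 genes tested, 5813 lay above 0. Rpl11, which binds Mdm2 when ribosome assembly fails and so stabilises p53, had the highest difference, 0.32 (SE 0.231, adjusted p 0.789). It read 6211, 5953 and 7035 in WT and 9319, 5860 and 8774 in Lyl1-/-, so 1 of the 3 Lyl1-/- arrays lay below all WT arrays.

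Between the knockouts there were again 0 calls among the members, against 0.117% of all genes tested, and the smallest adjusted p was 0.491. At an unadjusted p under 0.05 there were 2 members, both lower in E2A-/-, against 8.66% of all genes. The groups did not overlap for 3 members (6.4%), all lower in E2A-/-, against 12.2% of all genes. The median log2 difference of E2A-/- from Lyl1-/- was -0.06, with 12 above 0 and 35 below, beside -0.01 over all genes. Of all 11952 genes tested, 6291 lay below 0. Rpl41, a very short basic peptide of the large subunit, read 9164, 8490 and 8598 in E2A-/- and 10701, 10538 and 9603 in Lyl1-/-, a difference of -0.23 (SE 0.084, adjusted p 0.491). Rps26, which contacts the messenger upstream of the start codon, read 6108, 6189 and 6891 in E2A-/- and 8378, 8039 and 7123 in Lyl1-/-, a difference of -0.29 (SE 0.117, adjusted p 0.532). For both genes the 3 arrays of each genotype did not overlap, while the WT arrays, at 9650 to 10086 and 6055 to 7748, overlapped the Lyl1-/- or E2A-/- range. The value of Rpl41 depended on the probe set: the next brightest gave 0.06 (SE 0.088) between the knockouts, and the mean of its 4 probe sets -0.14 (adjusted p 0.754).

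**Figure D2:**
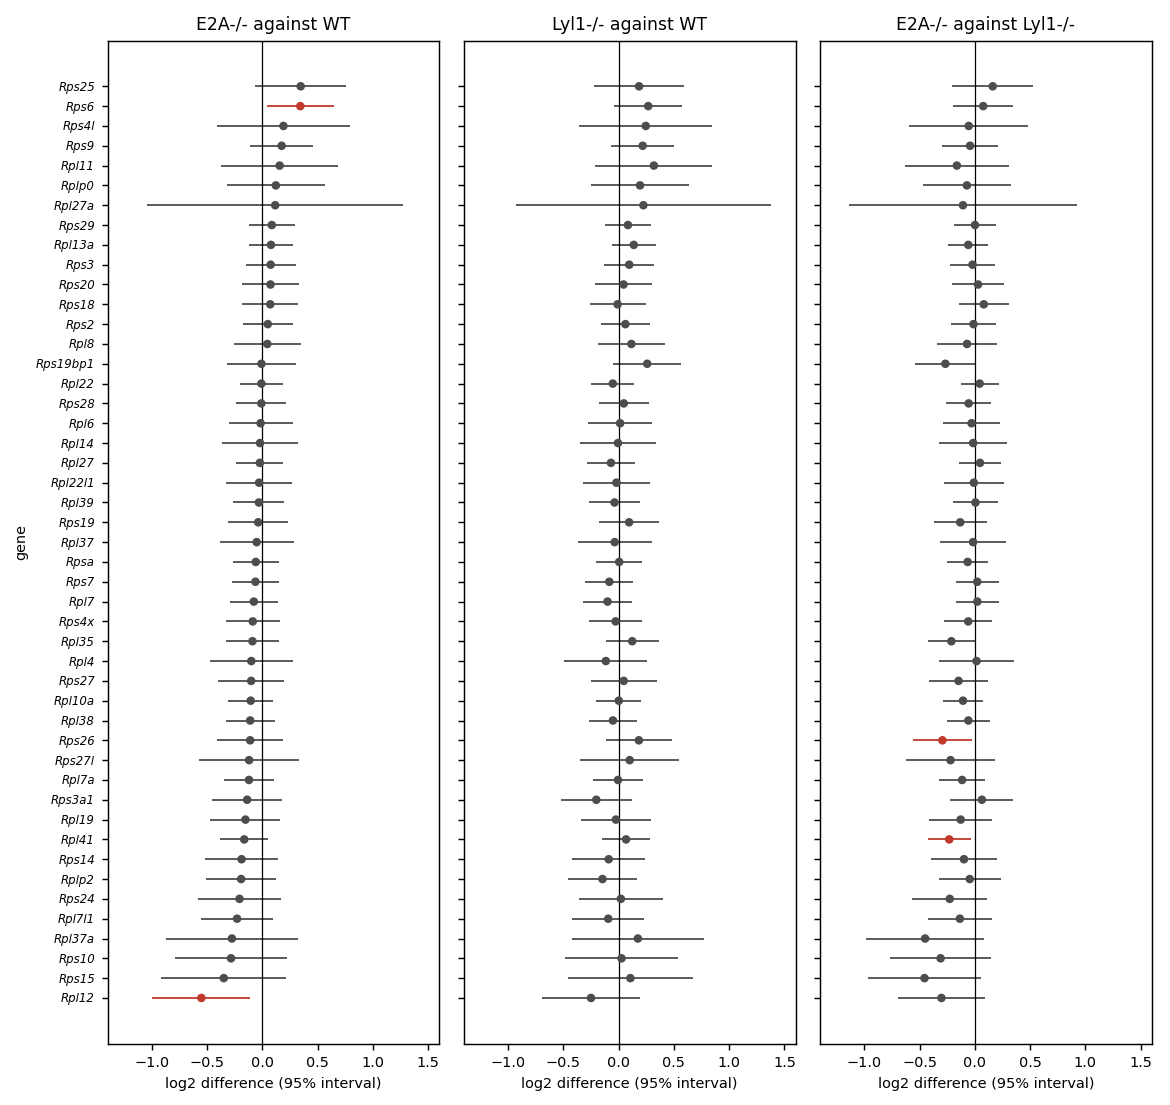
Points are the fitted log2 differences of the 47 tested genes in the 3 comparisons and lines their 95% intervals, with genes ordered by the difference of E2A-/- from WT; red marks an unadjusted p under 0.05. Rpl12, at the foot of the left panel, is the lowest at -0.55, Rps6 and Rps25 head it at 0.34 and 0.35, and the interval of Rpl27a is the widest.

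The size of change that these arrays would leave room for can be read from the intervals. The 95% interval of the log2 difference lay wholly between -0.5 and 0.5 for 32 of 47 members between E2A-/- and WT, for 33 between Lyl1-/- and WT and for 35 between the knockouts. Over all genes tested this held for 59.9%, 59.6% and 68.4%. For 46 of 47 members the interval lay between -1 and 1 in each comparison, Rpl27a being the exception. The median distance from the estimate to the end of its interval was 0.30, 0.30 and 0.27. A p above the threshold does not show that the genotypes have the same level. These intervals state what remains possible for the intensity of a gene's brightest probe set, and they do not bound the change of its messenger. Probe sets of the same gene could differ in the size of a change. On E2A-/- 2 the brightest probe set of Rps15 lay at -0.88 from the median of the other arrays, and its dimmer one at -1.85. The members' median residual standard deviation was 0.145, beside 0.157 over all genes tested.

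The medians of both subunits lay close to 0. The 22 large subunit genes had median log2 differences of -0.06 in E2A-/- and -0.01 in Lyl1-/- from WT, and -0.07 between E2A-/- and Lyl1-/-. The 20 tested small subunit genes had -0.05, 0.05 and -0.05. Among the stalk proteins, Rplp0 differed from WT by 0.12 (SE 0.194) in E2A-/- and 0.19 (SE 0.194) in Lyl1-/-. It read 9141, 6630 and 9479 in WT, 10632, 7217 and 8137 in E2A-/-, and 9492, 9343 and 8178 in Lyl1-/-. WT 2 thus had the lowest value of all arrays. Rplp2 differed by -0.19 and -0.15 (SE 0.137 for both). All 4 values had adjusted p-values of 0.806 to 0.951.

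Of the 19 genes listed for Diamond-Blackfan anaemia, 11 were members, and 0 of the 11 were called in any comparison. Their median log2 differences were -0.06 in E2A-/- and 0.05 in Lyl1-/- from WT and -0.15 between the knockouts. Rps19, the gene most often mutated in the disease, read 6211, 6218 and 5969 in WT, 6760, 5458 and 5836 in E2A-/-, and 7139, 6257 and 6350 in Lyl1-/-. Its WT arrays lay inside the spread of E2A-/- and below all Lyl1-/- arrays, with differences of -0.04 (SE 0.118, adjusted p 0.980) and 0.09 (SE 0.118, adjusted p 0.920). Between E2A-/- and WT the listed members with the smallest p were Rps10, at -0.28 (SE 0.222, adjusted p 0.832), and Rps24, at -0.21 (SE 0.165, adjusted p 0.841); both genes were low on E2A-/- 2, as given below. Between Lyl1-/- and WT they were Rps26, at 0.18 (SE 0.131, adjusted p 0.788), and Rpl11, given above. Between the knockouts they were Rps26, given above, and Rpl35, which differed by -0.21 (SE 0.093, adjusted p 0.578). Rps7, Rps28, Rps29, Rpl27 and Rps27 lay between -0.10 and 0.09 in both comparisons with WT.

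Paralogs were set beside their partners. Rpl22, whose loss is known to arrest developing T cells, had the lowest residual standard deviation of the brightest probe sets, 0.032. That probe set read 10253, 10114 and 10294 in WT, 10216, 10330 and 9846 in E2A-/-, and 9671, 9720 and 10097 in Lyl1-/-. The dimmest probe set of Rpl22 varied more, from 405 to 817 over the arrays. It differed from WT by 0.40 (SE 0.239, adjusted p 0.786) in E2A-/-, against -0.01 for the brightest. The remaining probe set, with a mean intensity of 2703, differed by 0.08 (SE 0.105) in both knockouts. The paralog Rpl22l1 differed by -0.03 (SE 0.132) in E2A-/- and -0.02 (SE 0.132) in Lyl1-/-. Neither gene of the pair passed the test in any comparison. Rps27l, a target of p53, read 1220, 1388 and 1293 in WT, 1476, 987 and 1230 in E2A-/-, and 1619, 1524 and 1147 in Lyl1-/-, so the 3 groups overlapped. Its partner Rps27 was dim, at 76.4 to 104. Rpl7l1 had a difference of -0.23 (SE 0.143, adjusted p 0.762) in E2A-/-, beside -0.08 (SE 0.095) for Rpl7, but this order did not hold over their other probe sets. Those of Rpl7 gave -0.24 and -0.30 in E2A-/-, and those of Rpl7l1 gave 0.01 and -0.14. In Lyl1-/- a dimmer probe set of Rpl7l1 gave 0.47 (SE 0.184, adjusted p 0.524), beside -0.09 for the brightest. Rps4l read 243 on E2A-/- 1 and 123 to 188 on the other arrays, while its partner Rps4x differed from WT by -0.09 (SE 0.106) in E2A-/- and -0.03 (SE 0.106) in Lyl1-/-.

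Rpl27a varied most within genotypes, with a residual standard deviation of 0.707. It read 414, 417 and 375 in WT, 238, 445 and 802 in E2A-/-, and 297, 462 and 775 in Lyl1-/-. Both knockouts spanned the WT values on either side, and the differences from WT were 0.12 and 0.22 (SE 0.505 for both). Rps4l, Rpl37a, Rps15 and Rpl11 followed, with residual standard deviations of 0.307 to 0.356.

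E2A-/- 2 stood apart in the ribosomal protein genes. Its members had a median log2 difference of -0.16 from the WT mean, with 35 of 47 below WT, against medians of -0.05 to 0.03 on the 8 other arrays. On this array 5 of 47 members (10.6%) lay more than 0.5 below WT, against 4.59% of all genes tested. Without E2A-/- 2 the median difference between E2A-/- and WT was -0.02 in place of -0.05, and the one between the knockouts was -0.02 in place of -0.06. Both shifts were smaller than 0.054, the spread of the members' medians between samples of a genotype. On E2A-/- 3 the members' median difference from WT was -0.05. Over all genes tested the median was -0.02 on E2A-/- 2 and -0.04 on E2A-/- 3.

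The probe sets of the members show where on E2A-/- 2 the low values fell. Compared with the median of the 8 other arrays, 14 of the members' 95 tested probe sets (14.7%) were more than 0.5 lower there, against 3.43% of the 20387 tested probe sets with 1 gene. More than 1 lower were 4 of 95 (4.21%) against 0.216%. On the other arrays 0 to 4 of 95 were more than 0.5 lower, against 0.285% to 5.19% of all probe sets with 1 gene. More than 1 lower were 0 of 95, against 0.0245% to 0.26%. Of the probe sets left out because they name several genes, a ribosomal protein gene among them, 11 of 101 (10.9%) were more than 0.5 lower on E2A-/- 2.

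**Figure D3:**
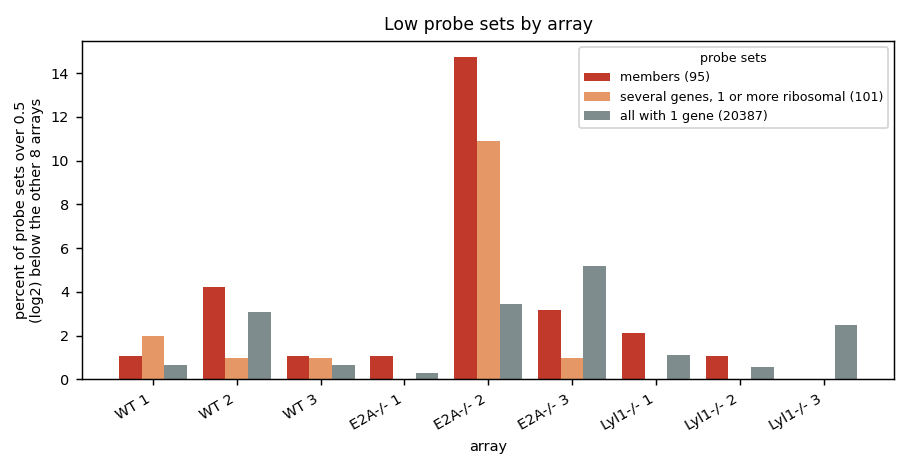
Bars give, for each array, the percent of probe sets more than 0.5 (log2) below the median of the other 8 arrays, for the members' 95 probe sets (red), 101 left-out probe sets that name a ribosomal protein gene among several (orange) and all 20387 probe sets with 1 gene (grey). E2A-/- 2 reaches 14.7% and 10.9% in the ribosomal sets, against 3.43% in all.

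The 14 low probe sets belonged to 7 genes, and 5 of these had another probe set that stayed near the median of the other arrays. Rps10, a protein of the beak of the small subunit, had 3 low of 6 tested. Its lowest read 2195 on E2A-/- 2 and 5927 to 7725 elsewhere, a log2 difference of -1.61, whereas another of its probe sets read 5640 there and 6086 to 7036 elsewhere. Rps15, which lies near the decoding centre, was low in both of its probe sets, at 1359 against 4277 to 6295 and at 4686 against 7685 to 10331. Rpl37a was low in 2 of 3, the lower of which read 1561 against 4391 to 7284. Rps24 was low in 4 of 6, Rps18 in 1 of 4, Rps9 in 1 of 3 and Rpl13a in 1 of 4. The 4 low probe sets of Rps24 were its brightest, with mean intensities of 4495 to 9666. Its probe sets that stayed near the median were far dimmer, with means of 317 and 93.6. For Rps18, Rps9 and Rpl13a the brightest probe set was not low, at 10929, 6491 and 10032 on E2A-/- 2 against 9217 to 11316, 5212 to 7033 and 9327 to 10731 elsewhere. The low probe set of Rps9 also read low on WT 2, at 3447, beside 3233 on E2A-/- 2 and 4886 to 7477 on the other 7 arrays. The same held for the low probe set of Rpl13a, which read 2861 on WT 2, 2954 on E2A-/- 2 and 3751 to 5024 on the other 7.

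**Figure D4:**
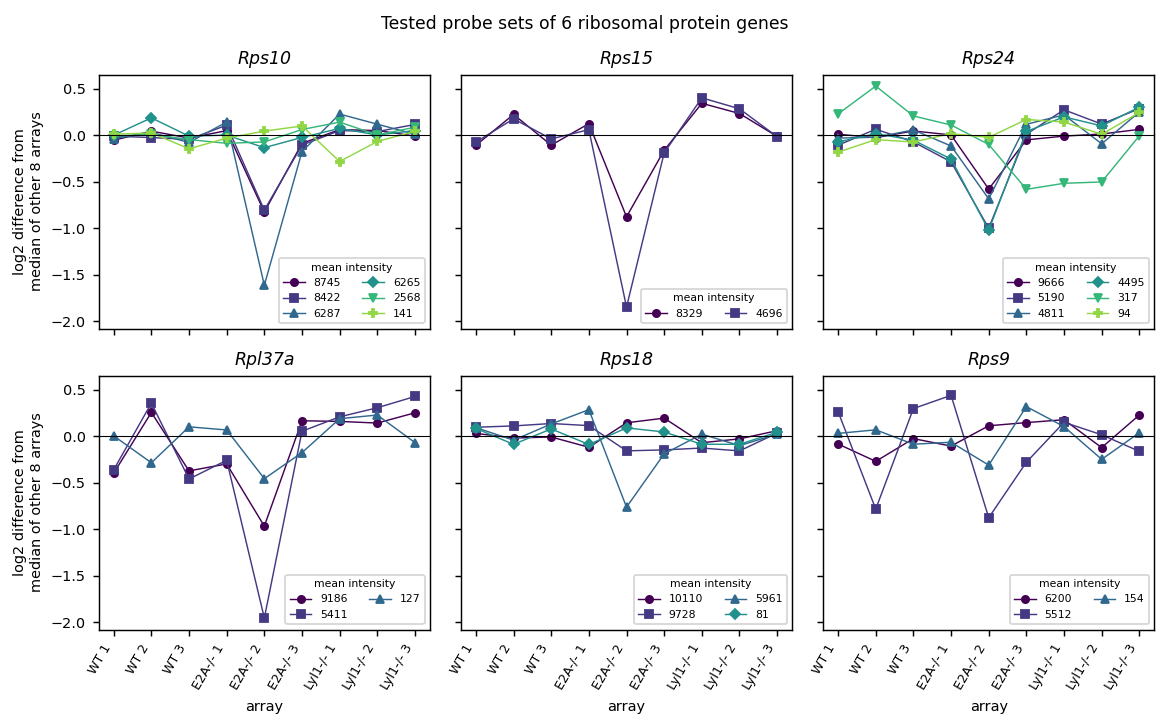
Each panel shows the tested probe sets of 1 gene, as the log2 difference of an array from the median of the other 8 arrays; colours and markers separate probe sets by their mean intensity. On E2A-/- 2 a probe set of Rps10 falls to -1.61 while others stay near 0, both sets of Rps15 fall, and Rps9 has a set that falls on WT 2 and E2A-/- 2.

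E2A-/- 2 also differed from most arrays in other features, each of which it shared with another array. The ratio of the 3′ to the 5′ control probe set of actin, which rises when RNA is broken or labelled short, was 10.1 on E2A-/- 2 and 10.6 on WT 2, against 2.85 to 4.23 on the other 7 arrays. The same ratio for Gapdh was 16.9 and 12.4, against 3.50 to 5.74. On WT 2, 4 of 95 member probe sets (4.21%) were more than 0.5 low, against 3.07% of all probe sets with 1 gene. The summed intensity of 11 markers of mature granulocytes and monocytes was 16640 on E2A-/- 2 and 18740 on E2A-/- 3, against 1648 to 3345 elsewhere. On E2A-/- 3, 3 of 95 member probe sets (3.16%) were more than 0.5 low, against 5.19% of all probe sets with 1 gene. On E2A-/- 2 and 3 respectively, 10 and 9 of the 11 markers lay above the array median, against 6 to 8 elsewhere. Xist read 1811 on E2A-/- 2, 2628 and 2787 on Lyl1-/- 1 and 2, and 49.2 to 57.5 on the others. The part of RNA quality, other cells or sex in the low values was not tested. With the actin ratio as a covariate the members' median difference between E2A-/- and WT was -0.07. With high or low Xist signal as a covariate it was -0.04, and E2A-/- 2 was the only E2A-/- array with high signal.

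Probe sets of the same gene often gave different directions. Of the 21 members with at least 2 tested probe sets, the sign of the log2 difference varied within 10 genes between E2A-/- and WT, within 11 between Lyl1-/- and WT and within 8 between the knockouts. The median range of the difference within a gene was 0.22, 0.15 and 0.17. Some of the sign changes were between values near 0 and within their SE. The probe sets of Rps7, for example, gave -0.06 (SE 0.094) and 0.0004 (SE 0.121) in E2A-/-. Fitted separately, the 95 probe sets had 0 calls in the 3 comparisons, against 0.221%, 0.216% and 0.0736% of the 20387 probe sets tested. An unadjusted p under 0.05 was found for 6, 4 and 6 of the 95 (6.32%, 4.21% and 6.32%), against 8.07%, 8.36% and 7.72% of all probe sets. For Rps3, a small subunit protein also known from DNA repair, the brightest probe set differed from WT by 0.07 (SE 0.098) in E2A-/- and 0.10 (SE 0.098) in Lyl1-/-. Its next one read 499, 520 and 492 in WT, 574, 772 and 921 in E2A-/-, and 810, 843 and 898 in Lyl1-/-. These values gave differences of 0.55 and 0.74 (adjusted p 0.239 for the latter), and no knockout array overlapped WT. A dim probe set of Rps24 went the other way, at 371, 456 and 365 in WT, 342, 310 and 222 in E2A-/-, and 232, 235 and 324 in Lyl1-/-, with differences of -0.52 and -0.65 (adjusted p 0.430 for the latter). The brightest probe set of Rps24 differed by 0.02 (SE 0.165) in Lyl1-/-.

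Genes around ribosome production were read from further lists. The mitochondrial ribosome has proteins of its own, and 76 of its genes were tested with 0 called in any comparison. Their medians were -0.01 in E2A-/- and 0.15 in Lyl1-/- from WT, with 60 of 76 above 0 in Lyl1-/-, and -0.12 between the knockouts, with 63 of 76 below 0. Over all 11952 genes tested, 5813 lay above 0 in Lyl1-/- and 6291 below 0 between the knockouts. Both counts use the same Lyl1-/- arrays. Mrpl42 had 0.48 (SE 0.106, adjusted p 0.211) in Lyl1-/-, and Mrpl2 had 0.46 (SE 0.099, adjusted p 0.178) in E2A-/-. The 40 tested ribosome biogenesis genes had 0 calls and medians of 0.01, 0.08 and -0.13. Sbds, which frees new large subunits for joining, had 0.42 (SE 0.130, adjusted p 0.378) in Lyl1-/-. The 16 RNA polymerase I genes, which make the ribosomal RNA, had 0 calls and medians of -0.08, -0.04 and -0.07, and the 17 genes of mTOR control had 0 calls and medians of -0.02, 0.09 and -0.15.

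Translation factors whose messengers carry a TOP tract had 0 calls among 20 tested, with medians of -0.03, 0.02 and 0.06. Eif4b, a cofactor of the helicase that unwinds messengers, differed by 0.72 (SE 0.147, adjusted p 0.164) in E2A-/- and 0.61 (SE 0.147, adjusted p 0.232) in Lyl1-/-. Eif4a2, a form of that helicase, differed by -0.56 (SE 0.156, adjusted p 0.329) in E2A-/-, and Naca, which binds nascent chains at the ribosome, by -0.37 (SE 0.115, adjusted p 0.399). Fau, whose product is cut into a ubiquitin-like protein and a small subunit protein, lies outside the symbol rule; it differed by -0.40 (SE 0.154, adjusted p 0.508) between E2A-/- and Lyl1-/-. Of 12 tested targets of p53, 1 was called: Cdkn1a, the inhibitor of cell cycle kinases, rose by 1.02 (SE 0.146, adjusted p 0.048) in Lyl1-/-. Cdkn1a differed by 0.35 (SE 0.146, adjusted p 0.565) in E2A-/-. No member on the p53 path, Rpl11 and Rps27l included, was called in Lyl1-/-.

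The genes whose log2 values followed the members' median most closely over the 8 samples were Ssna1 (Pearson r 0.977), Fau (0.974), Ech1 (0.971), Ap2m1 (0.970) and Rnf169 (0.968), out of 11905 genes that were not members. Without E2A-/- 2, over 7 samples, the same correlations were 0.971, 0.867, 0.893, 0.956 and 0.881. They are descriptions over few samples that share the arrays' quality differences, and carry no test.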

How the data were processed

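Each deposited value is the linear intensity of a probe set on an array. RMA and oligo, without versions, are the tools that the submitters' processing notes name for the authors' work. The lowest intensity of an array was 42.1 to 45.1, so differences of dim genes are understated. Of 45101 probe sets, 34945 name 1 gene in GEO's platform annotation; only these, without 64 controls, entered the tests. Log2 was taken of the intensities. The 3 genotypes entered 1 model of 8 samples, with 5 residual degrees of freedom, in limma 3.58.1 (lmFit, then eBayes; R 4.3.3) over 11952 genes, and adjusted p-values are Benjamini-Hochberg values over them. The fit was tested on simulated data. For arrays, their number limits the precision. The labels call the 3 samples of a genotype biological replicates.

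Named were members past the threshold or with the smallest unadjusted p under 0.05 (up to 5 per direction), the 5 brightest and dimmest, paralogs with partners, Diamond-Blackfan anaemia genes, list genes of smallest p (up to 3) and the 5 genes most like the members; genes singled out for their spread or for low probe sets were chosen after their values were seen. Members and lists were chosen with earlier results of these data known. Alternatives concerned normalization, the floor, the filter, probe sets, the variance model, covariates and samples left out.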

Additional observations from a re-analysis of the deposited data

How the results depend on the processing

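Under 25 alternatives in each comparison 0 members were called, while the calls over all genes ran from 3 to 97. Without _s_at and _x_at probe sets 41 members were tested. Their medians were -0.06 in E2A-/- and 0.01 in Lyl1-/- from WT, and -0.07 between the knockouts. The members with an unadjusted p under 0.05 (Rps6, Rpl12, Rpl41 and Rps26) kept their direction in 100 of 100 refits, and the smallest adjusted p was 0.124. These genes were picked for a small p in the same arrays, and several refits cannot change a gene's estimate. Rpl12, for example, stayed at -0.55 without the filter and without any single Lyl1-/- replicate. The refits are therefore no independent support for a direction. The log2 difference ran from 0.19 to 0.49 for Rps6, from -0.74 to -0.18 for Rpl12, from -0.28 to -0.14 for Rpl41 and from -0.36 to -0.23 for Rps26. The members' median log2 difference between E2A-/- and WT was -0.05; without E2A-/- 2 and 3 together it was 0.0052 and without WT 2 and E2A-/- 2 together 0.0031, and leaving out a replicate at a time gave -0.10 to -0.02. Between the knockouts it was -0.06, without E2A-/- 2 and 3 together 0.013, and -0.11 to -0.02 with a replicate left out; the cause was not tested. Between Lyl1-/- and WT the median of 0.03 ran from 0.02 to 0.03 with a replicate left out. It was -0.01 with the actin ratio and 0.07 with high or low Xist signal as a covariate. Between the knockouts high or low Xist signal as a covariate gave -0.09. The replicate block over 9 separate arrays called 0 members and left the 3 medians at -0.05, 0.02 and -0.06. It called 60, 55 and 13 genes of all, against 97, 91 and 23 for the 9 arrays without it. Same-numbered arrays correlated at -0.14 to 0.22 in their deviations from the means of their genotypes. With so few arrays, and WT 1 and WT 3 nearly the same, this cannot settle whether the numbers pair the samples. A fit that leaves a genotype with 1 sample takes its spread from the others. With 2 WT samples, members' differences under about 0.30 lie within the typical 95% interval.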
